A study of Mus musculus with 8 samples.

Results

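The genes described here encode the chains of the fibrillar interstitial collagens I, III and V, namely *Col1a1*, *Col1a2*, *Col3a1*, *Col5a1* and *Col5a2*. They were chosen by gene symbol and make up 5 of the 43629 genes in the count table. All 5 had counts in the resting zone of every mouse, and all 5 were higher in the resting zone than in the proliferative zone of the growth plate in 4 of 4 mice.

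Fibrillar collagens are built from 3 protein chains that wind around each other as a triple helix, which requires a glycine as the first of each 3 residues. Collagen I, made of *Col1a1* and *Col1a2* chains, is the main fibril of bone, tendon and skin. Collagen III, made of *Col3a1* chains alone, accompanies it in distensible tissues and vessel walls, and collagen V, made of *Col5a1* and *Col5a2* chains, is built into collagen I fibrils and helps to set their diameter. Cartilage instead holds fibrils of collagens II, IX and XI, so that low levels of collagen I chains are used as a sign of differentiated chondrocytes.

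The libraries came from Axin2CreERT2;R26RTdTomato mice, in which tamoxifen switches on a Cre recombinase in cells that express *Axin2*, a target of Wnt signaling, and these cells and their descendants then carry the red protein TdTomato. The mice received 3 daily injections from postnatal day 23 and were analyzed at day 30, and all groups shared this genotype and treatment. A laser cut TdTomato-positive chondrocytes of the resting zone, and flattened, unlabeled cells of the proliferative zone, out of frozen sections, so the resting group holds labeled cells and whatever else lay under the laser. The labels name tibiae as the source, whereas the methods of the study name the distal femur and proximal tibia. Each of 4 mice gave 1 resting and 1 proliferative library (n = 4 per zone, male mice 1 and 2 and female mice 6 and 13), and the RNA was amplified by 2 rounds of in vitro transcription.

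The resting libraries held 192882 to 462044 counts on genes and the proliferative libraries 249284 to 631474. Levels are given as CPM, the count of a gene set against the total of its library, scaled between libraries by TMM factors of 0.934 to 1.09. Chondrocyte markers (*Sox9*, *Acan*, *Col2a1*, *Col9a1*, *Hapln1*, *Matn3* and *Comp*) were present in every library and summed to 6209 to 16031 CPM in the resting zone and 28221 to 50164 CPM in the proliferative zone. The strand setting of the counting is not given in the sources used here, and counts on the mitochondrial genome lay mostly on 1 strand: *mt-Nd6*, the only protein gene on its strand, held 78.4% of the counts on the 13 mitochondrial protein genes. Of the listed genes whose exons overlap a gene on the opposite strand, 12 pairs held at least 1000 counts, and in 8 of them the partner held more. Hence a CPM is a share of the counted reads and may differ from a share of the RNA, which matters when 1 gene is compared with another. Whether it also affects the comparison of 1 gene between zones was not tested.

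The 5 genes lie on 4 chromosomes of the mouse genome GRCm38 (GENCODE M21 annotation). *Col1a1* (ENSMUSG00000001506) spans positions 94936224 to 94953042 of chromosome 11 and *Col1a2* (ENSMUSG00000029661) positions 4504814 to 4541544 of chromosome 6. *Col3a1* (ENSMUSG00000026043, chromosome 1, 45311538 to 45349706) and *Col5a2* (ENSMUSG00000026042, chromosome 1, 45374321 to 45503282) are neighbors on opposite strands whose exons do not overlap. *Col5a1* (ENSMUSG00000026837, chromosome 2, 27886425 to 28039514) shares exon sequence with *Gm13372* and *2810430I11Rik* on the opposite strand. These held 5 and 0 counts over all libraries against 286 for *Col5a1*, and no gene on the opposite strand shared exon sequence with the other 4.

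The repeat that defines the family can be read from the reference sequence. The longest unbroken run of glycine-X-Y codon triplets was 338 triplets in *Col1a1*, 339 in *Col1a2*, 344 in *Col3a1*, 338 in *Col5a1* and 339 in *Col5a2*. Coding exons of exactly 54 bases made up 21 of the 49 inner coding exons of *Col1a1*, 24 of 50 in *Col1a2*, 24 of 49 in *Col3a1*, 29 of 64 in *Col5a1* and 24 of 52 in *Col5a2*. They held 6 whole triplets each, except in *Col1a2*, where 23 of the 24 did. Among all 159211 inner coding exons of protein-coding genes, 0.733% had this length. The first such exon that begins with a glycine codon is shown for each gene, 5′ to 3′ on the coding strand, with the glycine codon that opens each triplet in capitals and all other codons in lower case. They stand at chr11:94939904-94939957, chr6:4515481-4515534, chr1:45325360-45325413, chr2:27965251-27965304 and chr1:45434892-45434945 (the last on the minus strand), in the order given.
*Col1a1*: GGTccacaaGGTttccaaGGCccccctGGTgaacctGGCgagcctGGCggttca
*Col1a2*: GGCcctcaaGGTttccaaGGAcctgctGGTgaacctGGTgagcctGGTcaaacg
*Col3a1*: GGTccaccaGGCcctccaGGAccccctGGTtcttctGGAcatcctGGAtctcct
*Col5a1*: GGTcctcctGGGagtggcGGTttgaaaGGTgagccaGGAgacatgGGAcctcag
*Col5a2*: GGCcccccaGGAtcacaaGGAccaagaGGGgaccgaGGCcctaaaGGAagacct
Glycine codons recur every 9 bases in all 5 exons.

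The first question was how the collagen I chains differ between zones. *Col1a1*, which encodes the α1 chain of collagen I, stood at 25866, 14955, 5133 and 14693 CPM in the resting zone of mice 1, 2, 6 and 13. In the proliferative zone of the same mice it stood at 2229, 279, 152 and 531 CPM. The lowest resting library, that of mouse 6, lay above the highest proliferative library, that of mouse 1. The means were 15162 ± 8474 and 798 ± 967 CPM (SD, n = 4), and *Col1a1* rose in the resting zone by 4.25 on the log2 scale (SE 0.78, adjusted p = 0.00149, edgeR quasi-likelihood test). By its mean in the resting zone *Col1a1* ranked 3 among the 3793 genes tested, and within mice its level was 11.6, 53.6, 33.7 and 27.7 times that of the proliferative zone. Without the proliferative library of mouse 1 alone the log2 fold change of *Col1a1* was 5.50.

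*Col1a2*, the gene of the α2 chain, stood at 10565, 7623, 3416 and 8210 CPM in the resting zone and at 1573, 656, 437 and 576 CPM in the proliferative zone of mice 1, 2, 6 and 13. Again mouse 6 was lowest in the resting zone and mouse 1 highest in the proliferative zone, and the zones did not overlap. The means were 7454 ± 2977 and 811 ± 516 CPM (SD, n = 4), a log2 fold change of 3.20 (SE 0.44, adjusted p = 0.000332, edgeR quasi-likelihood test). The within-mouse folds of 6.72, 11.6, 7.81 and 14.2 spread less than those of *Col1a1*.

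*Col3a1*, the gene of the single collagen III chain, was far less abundant. It had 88, 33, 54 and 50 counts in the resting zone, which are 267, 105, 107 and 245 CPM. In the proliferative zone it had 8, 6, 0 and 1 counts, or 15.5, 10.3, 0 and 4.15 CPM. A count of 0 in mouse 6 allows up to 4.81 CPM, so the proliferative level of *Col3a1* was close to the limit of detection in mice 6 and 13. The log2 fold change was 4.50 (SE 0.66, adjusted p = 0.000434, edgeR quasi-likelihood test), with means of 181 ± 87.3 and 7.49 ± 6.82 CPM (SD, n = 4), and within-mouse folds could be given for mice 1 and 2 as 17.2 and 10.2.

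The collagen V genes had lower levels than the collagen I genes, and each was called. *Col5a2*, the gene of the α2(V) chain, stood at 386, 222, 173 and 191 CPM in the resting zone and at 62.1, 10.3, 8.01 and 12.4 CPM in the proliferative zone of mice 1, 2, 6 and 13. Mouse 1 was highest in both zones, and its proliferative library stood well above the other 3. The log2 fold change of *Col5a2* was 3.35 (SE 0.58, adjusted p = 0.00107, edgeR quasi-likelihood test), with means of 243 ± 97.3 and 23.2 ± 26.0 CPM (SD, n = 4), and 4.50 without the proliferative library of mouse 1.

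*Col5a1*, the gene of the α1(V) chain, stood at 301, 108, 119 and 132 CPM in the resting zone and at 50.5, 25.7, 19.2 and 53.9 CPM in the proliferative zone. Here too the zones did not overlap, yet the log2 fold change was the smallest of the 5 genes, and 1 resting library, that of mouse 1, stood apart from the rest. The log2 fold change of *Col5a1* was 2.19 (SE 0.45, adjusted p = 0.00314, edgeR quasi-likelihood test), with means of 165 ± 91.0 and 37.3 ± 17.4 CPM (SD, n = 4). Within mice the folds were 5.96, 4.20, 6.21 and 2.46. Without the resting library of mouse 1 its log2 fold change was 1.71 and its adjusted p 0.0127, so that it missed the threshold of 0.01, and it also missed it without the proliferative library of mouse 2 (adjusted p = 0.0172) or of mouse 6 (adjusted p = 0.0135).

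**Figure D1:**
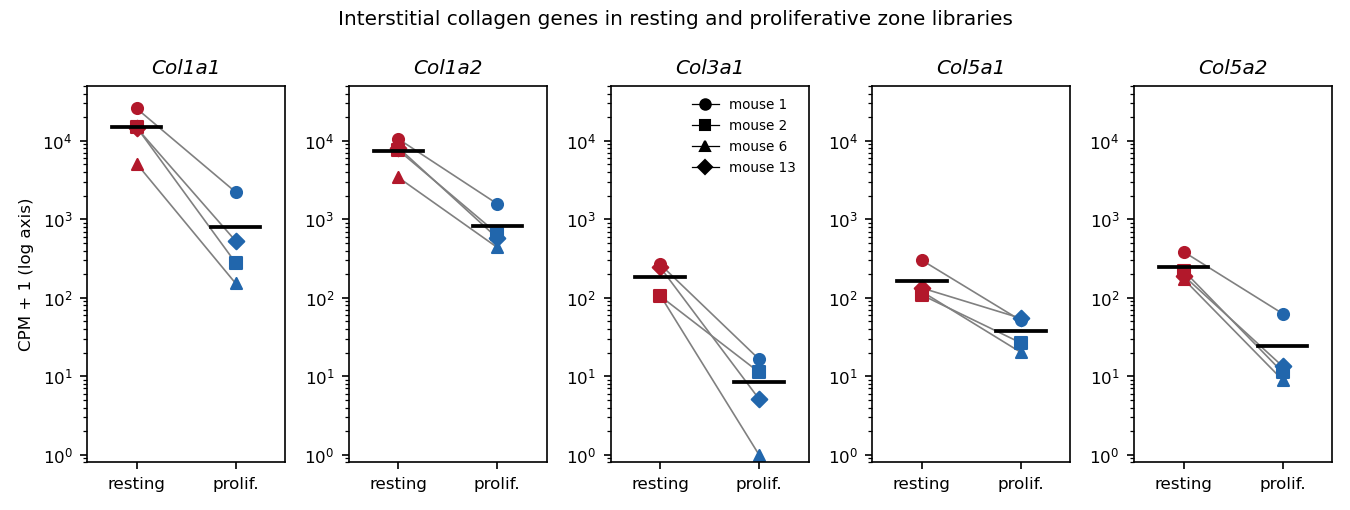
CPM + 1 on a log axis for each of the 5 collagen genes in the resting zone (red) and proliferative zone (blue) libraries of 4 mice, with a grey line joining the 2 libraries of a mouse and a black bar at the mean of each zone. Each line falls from left to right in each panel, from 15162 to 798 CPM on average for *Col1a1* and from 165 to 37.3 CPM for *Col5a1*.

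Thus 5 of 5 genes were called higher in resting than in proliferative libraries, at an adjusted p below 0.01 and a log2 fold change above 1, a call made for 11.0% of the 3793 genes tested. All resting libraries lay above all proliferative libraries in 5 of 5 genes and in 17.8% of the genes tested. Their median log2 fold change was 3.35 beside 0.08 for the genes tested. *Col3a1*, *Col5a1* and *Col5a2* reached the minimum of the filter on low counts in all resting libraries but not in all proliferative libraries, so their place in these counts is a description. With the mouse as a block the log2 fold changes were 4.79, 3.27, 4.54, 2.16 and 3.69 for *Col1a1*, *Col1a2*, *Col3a1*, *Col5a1* and *Col5a2*, and the adjusted p-values from edgeR lay between 5.16e-05 and 0.00156.

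The sum over the 5 genes shows how much of a library they took up. It came to 3.69% of all counts in the resting zone of mouse 1 (95% Wilson interval 3.63 to 3.76), 2.41% in mouse 2, 0.974% in mouse 6 (0.946 to 1.00) and 2.48% in mouse 13. In the proliferative zone it came to 0.370% in mouse 1 (0.355 to 0.387), 0.0916% in mouse 2, 0.0610% in mouse 6 (0.0552 to 0.0674) and 0.114% in mouse 13. The resting library of mouse 6 and the proliferative library of mouse 1 therefore lay closest to each other. Without both of them the log2 fold changes were 5.88, 4.00, 5.33, 2.59 and 4.74 in the order used above. As these libraries were picked for lying closest, the larger values follow from the choice. Without both libraries of mouse 1 they were 5.18, 3.51, 4.84, 1.93 and 4.25, and *Col5a1* was no longer called (adjusted p = 0.0130). These intervals cover counting error only.

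On a scale of CPM per kilobase of the transcript with the longest coding sequence, which corrects for length but not for the counting or the amplification, *Col1a1* and *Col1a2* lay far above the other 3 genes in the resting zone. The median levels there were 2500 for *Col1a1*, 1480 for *Col1a2*, 31.7 for *Col3a1* and 31.2 for *Col5a2*, and *Col5a1*, at 12.8 to 15.8 in mice 2, 6 and 13 and 35.8 in mouse 1, was the lowest of the 5 in each resting library. In the proliferative zone the medians were 115 for *Col1a2*, 68.3 for *Col1a1*, 4.53 for *Col5a1*, 1.71 for *Col5a2* and 1.30 for *Col3a1*. On this length *Col5a1* stood first of the 3 minor genes in 3 of 4 proliferative libraries, and *Col3a1* and *Col5a2* overlapped in the resting zone. *Col1a1* stood above *Col1a2* in 4 of 4 resting libraries and below it in 3 of 4 proliferative libraries, and the ranges of the 2 genes overlapped in both zones. When the length of all annotated exons was used, the medians in the proliferative zone were 61.7 for *Col1a1* and 49.6 for *Col1a2*, so that this order rests on the length chosen. With that length *Col5a1* was the lowest in 1 of 4 resting libraries and *Col3a1* in the other 3, so the order of the minor genes in the resting zone rests on it too. *Col2a1*, the chain of the cartilage collagen II, had medians of 1079 in the resting and 2903 in the proliferative zone on this scale.

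Ratios within a library need no scaling between libraries, and 4 of them were compared between zones by an exact two-sided permutation test with an adjustment over the 4. The ratio of *Col1a1* to *Col1a2* counts was 2.45, 1.96, 1.50 and 1.79 in the resting zone and 1.42, 0.426, 0.348 and 0.921 in the proliferative zone of mice 1, 2, 6 and 13. *Col1a1* thus held more counts than *Col1a2* in 4 of 4 resting libraries and in 1 of 4 proliferative libraries. The log2 ratio was higher in the resting zone by 1.51, in 4 of 4 mice, with p = 0.0286, the smallest the exact permutation test can give, and an adjusted p of 0.0571 that misses the threshold of 0.05.

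The collagen V genes were set against the collagen I genes in the same way. The ratio of *Col5a1* plus *Col5a2* to *Col1a1* plus *Col1a2* was 0.0188, 0.0146, 0.0342 and 0.0141 in the resting zone and 0.0296, 0.0385, 0.0462 and 0.0599 in the proliferative zone. It was lower in the resting zone in 4 of 4 mice, although the resting library of mouse 6 lay above the proliferative library of mouse 1. The log2 difference was -1.17 (exact permutation p = 0.0571, adjusted p = 0.0762). For *Col3a1* against the collagen I genes the log2 difference was 0.90 and its sign held in 3 of 4 mice (exact permutation p = 0.286, adjusted p = 0.286), with too few *Col3a1* counts in the proliferative zone to fix it.

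The sum of the 5 genes stood against *Col2a1* at 7.82, 5.27, 1.07 and 3.76 in the resting zone and at 0.321, 0.0474, 0.0565 and 0.0677 in the proliferative zone. Interstitial collagen genes therefore held more counts than *Col2a1* in every resting library and fewer in every proliferative library. This log2 ratio differed by 5.36, in 4 of 4 mice, with an exact permutation p of 0.0286 and an adjusted p of 0.0571. Paired sign flips within 4 mice cannot give a p below 0.125, which is what 3 of the 4 ratios reached. None of the 4 ratios passed the adjusted threshold.

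**Figure D2:**
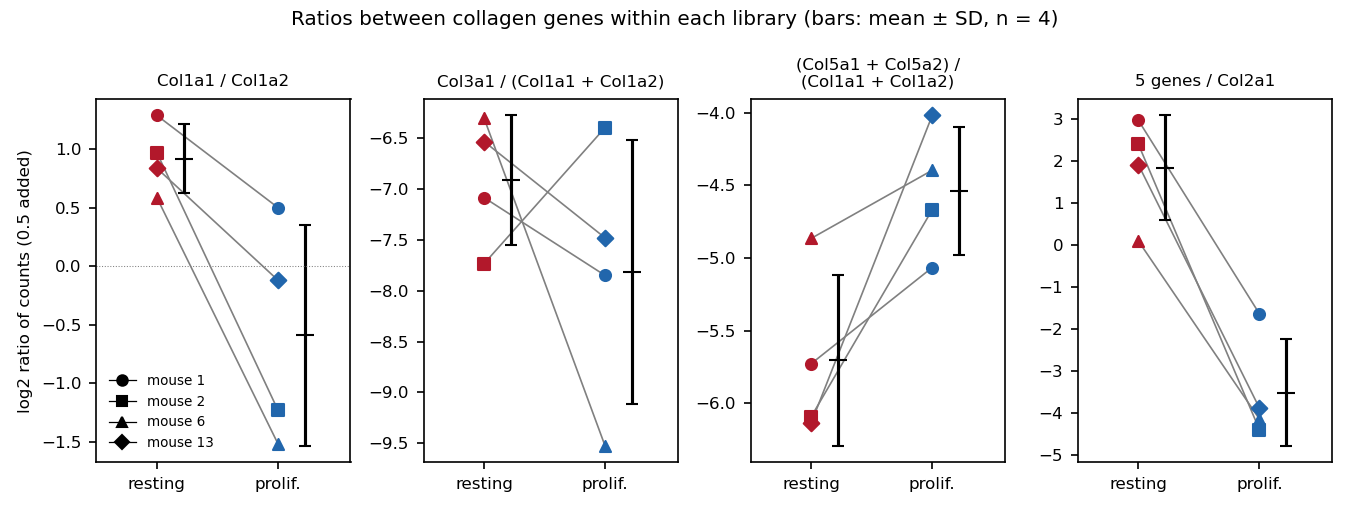
Log2 ratios of counts within each library, with 0.5 added to both sums, in the resting (red) and proliferative (blue) zone; grey lines join the libraries of a mouse and black bars give the mean and SD of 4 libraries. The *Col1a1* to *Col1a2* ratio and the ratio of the 5 genes to *Col2a1* are higher in the resting zone in 4 of 4 mice, the collagen V to collagen I ratio is lower in 4 of 4, and the *Col3a1* ratio has 1 mouse against the others.

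The zone difference was then compared between the sexes. In the interaction of zone and sex 0 of 5 genes had an adjusted p below 0.05 in edgeR's quasi-likelihood test and 0 of 5 had an unadjusted p below 0.05. In edgeR's likelihood ratio test these counts were 0 and 1. The share of all genes below the unadjusted threshold was not counted, so nothing is read from the unadjusted counts. Among all 3793 genes tested 1 (0.0264%) passed the adjusted threshold with the first test and 21 (0.554%) with the other, so a count of 0 of 5 is at the background. *Col3a1* had the lowest adjusted p, 0.746 with the quasi-likelihood test, and with 2 mice per sex and so few counts a difference between sexes was not detectable rather than absent.

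The cartilage fibril collagens II, IX, XI and XXVII gave calls in the opposite direction. Of their 7 genes, all tested, 0 were called higher in the resting and 3 in the proliferative zone, a call made for 6.93% of the genes tested, and their median log2 fold change was -1.45. At an unadjusted p below 0.05 in edgeR 0 were higher in the resting and 7 in the proliferative zone, a threshold that 22.9% and 17.5% of the genes tested passed. DESeq2 called 0 and 6, beside 13.1% and 9.28% of the genes tested. *Col11a1*, which encodes the α1 chain of collagen XI, fell by 2.58 on the log2 scale in the resting zone (edgeR adjusted p = 0.000261), *Col2a1* fell by 1.37 (adjusted p = 0.00275) and *Col9a2*, a chain of the collagen IX that coats collagen II fibrils, fell by 1.62 (adjusted p = 0.00943). Among these 3 the resting library of mouse 6 was the highest of its zone, the reverse of its place for the collagen I genes.

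Enzymes and chaperones that prepare procollagen in the endoplasmic reticulum gave no call in the direction of the 5 genes. Of 17 genes listed 15 were tested, with a median log2 fold change of -1.73. Of these, 0 were called higher in the resting and 7 in the proliferative zone, beside 11.0% and 6.93% of the genes tested. Of the 15 tested, 9 reached the minimum of the filter in all proliferative but not in all resting libraries, with *P4ha1* and *P4ha2* among the 7 called, so the counts over this list are a description. At an unadjusted p below 0.05 in edgeR 0 were higher in the resting and 14 in the proliferative zone, beside 22.9% and 17.5% of the genes tested. DESeq2 called 0 and 12, beside 13.1% and 9.28% of the genes tested. *Plod2*, a lysyl hydroxylase, fell by 1.95 on the log2 scale in the resting zone (edgeR adjusted p = 0.000618). The prolyl 4-hydroxylase subunits *P4ha1* and *P4hb* had log2 fold changes of -2.50 and -1.55, the collagen chaperone *Serpinh1* one of -1.54 and *Crtap*, a part of the prolyl 3-hydroxylase complex, one of -1.76.

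**Figure D3:**
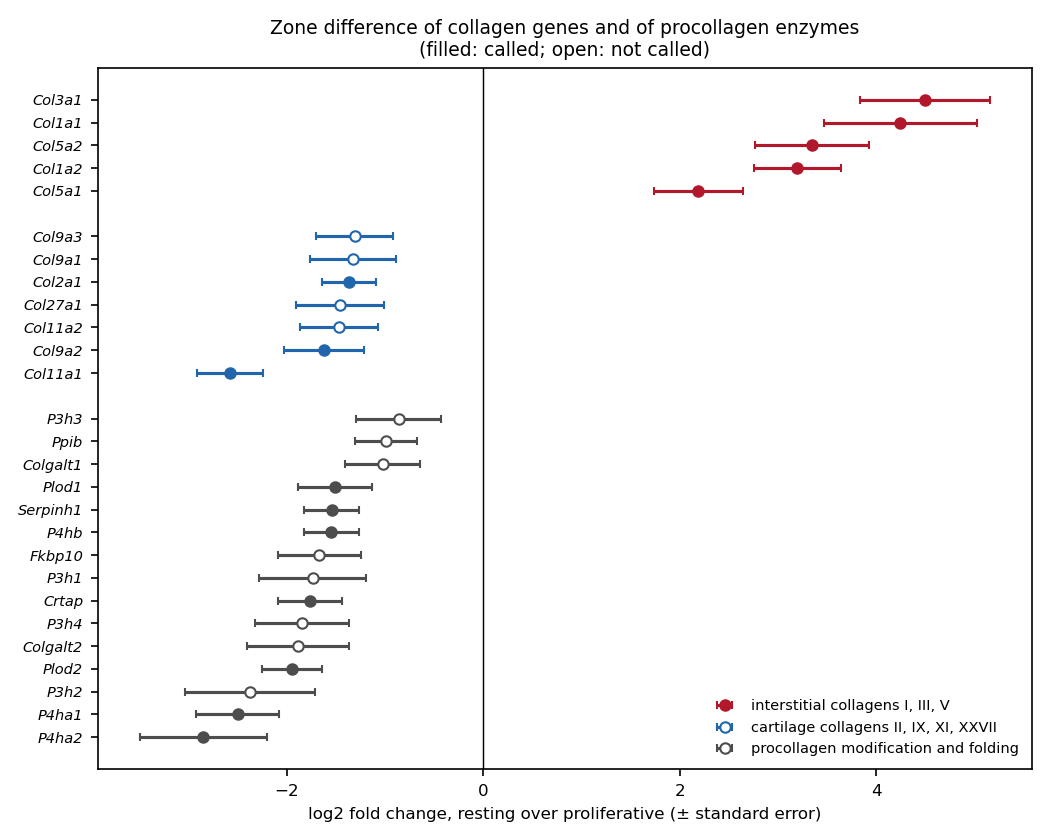
Log2 fold change of the resting over the proliferative zone with its standard error from edgeR for the 5 interstitial collagen genes (red), 7 cartilage collagen genes (blue) and 15 tested genes of procollagen modification and folding (grey); filled points were called at an adjusted p below 0.01 and a change above 1 or below -1. The red points lie between 2.19 and 4.50, and the blue and grey points lie below 0.

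For the later steps of collagen assembly few genes had enough counts. Of 16 genes of procollagen export, propeptide removal and crosslinking 8 were tested and 1 was called, a share near the 6.93% of all genes tested, namely the procollagen C-proteinase enhancer *Pcolce2*, which fell by 2.14 on the log2 scale in the resting zone (edgeR adjusted p = 0.00458). The likelihood ratio test called 1 higher in the resting and 3 in the proliferative zone, beside 14.9% and 10.2% of the genes tested. The other 8 did not pass the filter on low counts, and their counts went in both directions. The crosslinking enzyme *Lox* had 45, 31, 10 and 23 counts in the resting zone and 9, 2, 0 and 0 in the proliferative zone, and *Loxl1* had 9, 6, 3 and 2 against 0 in each. The N-proteinase *Adamts2* had 24, 7, 13 and 12 against 4, 1, 0 and 0 counts, whereas *Adamts3*, also an N-proteinase, had 0, 0, 1 and 0 against 9, 3, 10 and 3. *Ctage5*, *Loxl4*, *Tll1* and *Adamts14* had 16 counts or fewer in each library. Of 9 receptors for fibrillar collagen 4 were tested and 0 were called by the quasi-likelihood test, with 1 gene in each direction at an unadjusted p below 0.05, beside 22.9% and 17.5% of the genes tested. The likelihood ratio test and DESeq2 each called 1 gene in each direction, beside 14.9% and 10.2% of the genes tested with the first and 13.1% and 9.28% with DESeq2. Of these 4 receptors 1 reached the minimum of the filter in all libraries of the resting zone only and 1 in those of the proliferative zone only, so nothing is read from these counts.

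Partners of the interstitial fibril were split. Of 13 genes 8 were tested, 2 were called higher in the resting and 1 in the proliferative zone, with a median log2 fold change of 0.04, beside 11.0% and 6.93% of the genes tested. Decorin (*Dcn*), a small proteoglycan that binds collagen I fibrils, rose by 3.04 on the log2 scale in the resting zone (edgeR adjusted p = 8.78e-05; it too reached the minimum of the filter in all libraries of the resting zone only) and fibronectin (*Fn1*) by 2.98 (adjusted p = 0.000265), whereas fibromodulin (*Fmod*), a related proteoglycan, dropped by 1.76 (adjusted p = 0.000631). *Fn1* stood at 434, 460, 1269 and 584 CPM in the resting zone of mice 1, 2, 6 and 13, so that mouse 6 was highest for it and lowest for the collagen I genes.

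Among genes that degrade fibrillar collagen, calls had the direction of the collagen genes. Of 6 listed and tested 3 were called higher in the resting and 0 in the proliferative zone, with a median log2 fold change of 3.09, beside 11.0% and 6.93% of the genes tested. These were the gelatinase *Mmp9* (log2 fold change 5.56), the collagenase *Mmp13* (4.66) and the lysosomal protease cathepsin K (*Ctsk*, 3.85), each with an edgeR adjusted p of 0.0021 or less. All 3 reached the minimum of the filter on low counts in all resting but not in all proliferative libraries, so this count is a description. *Ctsk* and *Mmp9* are also osteoclast markers and *Mmp13* is also made by osteoblasts and hypertrophic chondrocytes.

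Markers of other cell types moved with the zones as well. In bulk libraries fewer cells of a type and less RNA per cell cannot be told apart. The 12 osteoblast and osteocyte markers summed to 913 to 1912 CPM in the resting zone and 94.5 to 402 CPM in the proliferative zone, and of 5 tested 1, *Spp1*, was called higher in the resting zone. Osteoclast markers summed to 1496 to 4549 against 14.4 to 445 CPM with 4 of 4 tested called, erythroid markers to 1811 to 12026 against 0 to 1716 CPM with 4 of 7 called, and leukocyte markers to 2306 to 3068 against 247 to 850 CPM with 4 of 6 called, beside 11.0% of the genes tested. For bone, osteoclast, erythroid and leukocyte markers the likelihood ratio test called 3, 4, 4 and 5 higher in the resting zone, beside 14.9% of the genes tested. DESeq2 called 1, 3, 1 and 3 in that order, beside 13.1%. The markers of these 4 lists called by the quasi-likelihood test reached the minimum of the filter on low counts in all resting but not in all proliferative libraries. Their counts are therefore a description. Endothelial markers summed to 142 to 292 against 1.71 to 13.6 CPM, marrow stroma markers to 169 to 257 against 24.9 to 56.5 CPM and tendon, ligament and fibroblast markers to 105 to 207 against 0 to 29.1 CPM. Smooth muscle and pericyte markers, at 388 to 735 against 348 to 505 CPM, overlapped between zones, yet the pericyte marker *Rgs5*, at 53.9 to 213 against 0 to 4.15 CPM, was called higher in the resting zone. Hypertrophic chondrocyte markers summed to 342 to 726 against 754 to 1332 CPM. Most of the resting sum was *Mmp13*, at 323 to 716 CPM, while *Panx3* stood at 9.51 to 47.7 against 563 to 947 CPM and *Col10a1* at 0 to 21.9 against 62.5 to 356 CPM, both called higher in the proliferative zone. *Rgs5*, *Panx3* and *Col10a1* likewise reached that minimum in all libraries of 1 zone only. The part of these cells in the zone difference of the 5 genes was not tested.

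Bone markers differed among themselves in how they followed the collagen I genes. In the resting zone of mice 1, 2, 6 and 13, *Ibsp*, the gene of bone sialoprotein, had 220, 92, 486 and 61 counts, and *Spp1*, the gene of osteopontin, stood at 246, 285, 668 and 167 CPM. Both were highest in mouse 6, where *Col1a1* and *Col1a2* were lowest. *Bglap*, the gene of osteocalcin, had 32, 22, 6 and 10 counts, so it was lowest in mouse 6, as the collagen I genes were.

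Bone and blood markers were also counted beside collagen I in the proliferative libraries. In mouse 6 all 7 erythroid markers and 10 of 12 osteoblast and osteocyte markers had a count of 0, with *Ibsp*, *Spp1*, *Bglap* and *Dmp1* among them, while *Col1a1* had 95 and *Col1a2* 273 counts. In that library *Alpl* and *Sp7*, which hypertrophic chondrocytes also express, made up the bone markers present. In mouse 13 the 7 erythroid markers were again at 0 and so were 7 of the bone markers, whereas *Ibsp* had 3 counts and *Spp1* 1, beside 128 of *Col1a1* and 139 of *Col1a2*. In the resting library of mouse 6, *Bglap*, *Dmp1*, *Spp1* and *Ibsp* had 6, 12, 336 and 486 counts beside 2580 of *Col1a1*. Depth limits what a 0 in a proliferative library can say for each of them. Mouse 1, whose proliferative library was highest for 4 of the 5 genes, was also highest in that zone for erythroid, osteoclast and bone markers. The source of the collagen I counts in the proliferative libraries was not tested.

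**Figure D4:**
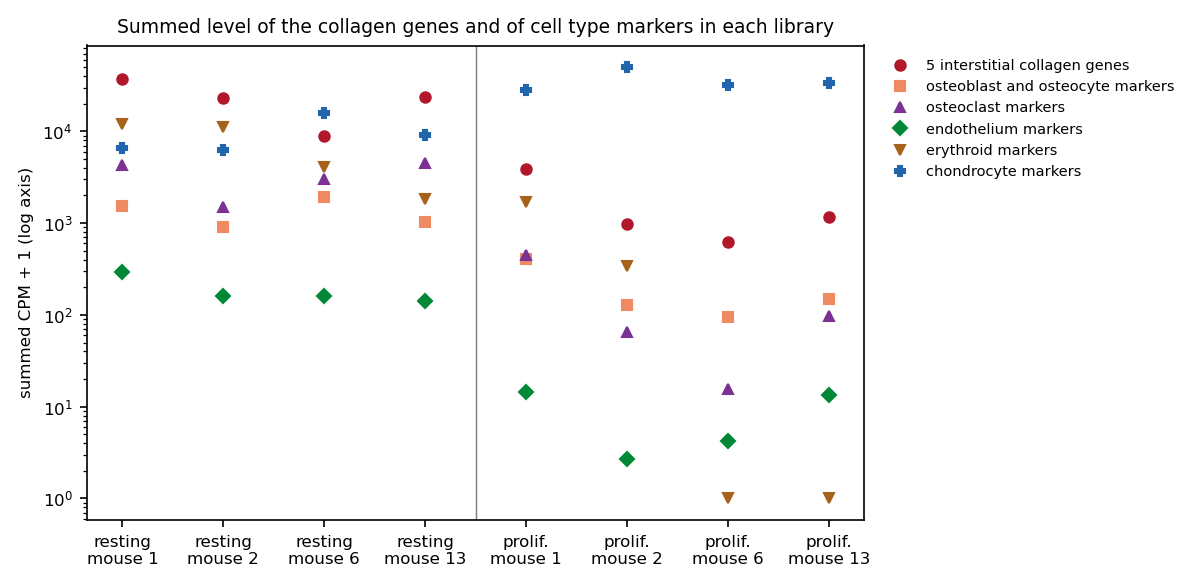
Summed CPM + 1 on a log axis in each of the 8 libraries for the 5 interstitial collagen genes and for markers of 5 cell types. The collagen genes, the osteoblast and osteocyte markers, the osteoclast markers, the endothelial markers and the erythroid markers stand higher in each resting library than in each proliferative library, the chondrocyte markers stand lower, and erythroid markers sum to 0 in the proliferative libraries of mice 6 and 13.

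The 5 genes varied together. Over the 8 libraries their log2(CPM + 1) values correlated with Pearson's r of 0.914 to 0.987 between pairs, and after subtraction of the zone means r was 0.600 to 0.941 with the highest value between *Col1a1* and *Col1a2*. All libraries of a mouse share an animal and all points share the zone contrast, so these values are descriptions.

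Among all other genes tested, those most like the mean of the 5 were *Mybbp1a* (r = 0.996 over 8 libraries), *Gfm2* (0.990), *Psap* (0.987), *Tmsb4x* (0.987) and *Txndc11* (0.987). After subtraction of the zone means they were *Mybbp1a* (0.977), *Hoxb3os* (0.968), *Gfm2* (0.936), *Slc39a5* (0.935) and *Rangap1* (0.925). All were picked for the highest r among the genes tested, so part of each r follows from the choice. *Rangap1* had a log2 fold change of 0.09 (edgeR adjusted p = 0.887). *Hoxb3os* stood at only 3.42, 0 and 4.15 CPM in the proliferative zone of mice 2, 6 and 13. *Mybbp1a* stood at 1318, 704, 571 and 756 CPM in the resting zone and at 134, 39.4, 11.2 and 41.5 CPM in the proliferative zone of mice 1, 2, 6 and 13, with mouse 1 highest in both zones as for *Col1a1*. Of these 8 genes 5 share exon sequence with a gene on the opposite strand, for example *Mybbp1a* with *Spns2*, and counts of a gene and its partner cannot be told apart without the strand setting.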

How the data were processed

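Resting and proliferative zone RNA from 4 mice was sequenced as 8 libraries. The authors used BBDuk for trimming and HISAT2 2.1.0 for alignment to GRCm38, and deposited whole-number counts per gene from HTSeq-count 0.11.2 with Ensembl annotation. The strand setting is not given in the sources used here. A second deposited table, used here for gene symbols only, also holds the authors' own comparison of the zones (fold change, test score, p-value and false discovery rate), which was not used. Members were matched by symbol and linked to the counts by Ensembl identifier, and 1104 genes had no name.

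The counts of all 43629 genes entered edgeR 4.0.16 in R 4.3.3. After the filter by zone (minimum count 10, minimum total 15) 3793 genes were tested with TMM scaling, the quasi-likelihood test on zone alone, and Benjamini-Hochberg adjustment over the genes tested. Log2 fold changes are resting over proliferative, and a gene was called at an adjusted p below 0.01 and a change above 1 or below -1. DESeq2 1.42.0 was an alternative. Ratios used counts with 0.5 added and exact permutation. The fits were tested on simulated data. Plots used matplotlib 3.10.9.

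By the labels, equal numbers mark libraries of the same mouse, which pairs them. After removal of the zone means the 2 libraries of a mouse correlated across genes at r = 0.165, 0.0136, 0.137 and 0.0577 in mice 1, 2, 6 and 13. The study names no block, so the mouse as a block was an alternative. No 2 libraries of a zone agreed within sampling noise.

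The 5 genes and the gene lists were chosen with earlier results of these data known. Named were the 5 genes, up to 5 called genes of each pathway list by adjusted p, the 3 markers of each cell type with the highest mean CPM where values are given, and the 5 genes most like the mean of the 5 on each of 2 scales. *Bglap*, *Dmp1* and *Sp7* and the genes named as not passing the filter or as reaching it in 1 zone were named after their values were seen. The length of all exons as a second length for CPM per kilobase was also chosen after the data were seen.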

Additional observations from a re-analysis of the deposited data

Results flagged for a closer look

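In 18 groups of 4 libraries (the levels of the 5 genes and the 4 ratios, by zone) the gap of the most distant library was set against the range of its group, by Dixon's test at 95%, which chance passes in about 1 of 20 groups. The resting library of mouse 1 stood apart for *Col5a1* at 301 CPM, beside 108 to 132 CPM in the other 3 (gap over range 0.872). The proliferative library of mouse 1 stood apart for *Col5a2* at 62.1 CPM, beside 8.01 to 12.4 CPM in the others (gap over range 0.918). Without the second library the log2 fold change of *Col5a2* was 4.50, and erythroid markers summed to 1716 CPM in it against 0 to 339 CPM in the other proliferative libraries. The part of other cells in either value was not tested.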

How the results depend on the processing

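Over 22 alternative settings the log2 fold changes of the 5 genes gave 108 values, of which 103 kept the call, 0 changed sign and 5 missed the threshold, all of them for *Col5a1*. The 5 values at an adjusted p below 0.05 and the 5 without the 2 closest libraries, the resting one of mouse 6 and the proliferative one of mouse 1, could hardly lose a call and are no check. The 5 values of *Col5a1* that missed the threshold came from 2 kinds of setting. They were the test against a log2 fold change of 1 (adjusted p = 0.0246, edgeR) and fits that left out libraries. These fits were without the resting library of mouse 1, without the proliferative library of mouse 2 or 6, and without both libraries of mouse 1. With the mouse as a replicate block 5 of 5 genes were called, and the block changed no call of the 5 genes. When 10 counts were asked of every library, *Col3a1* and *Col5a2* fell out and 3 of 3 genes were called. Leaving out each library in turn gave 4 to 5 called genes, and log2 fold changes of 3.77 to 5.50 for *Col1a1*, 2.88 to 3.66 for *Col1a2*, 3.91 to 5.04 for *Col3a1*, 1.71 to 2.34 for *Col5a1* and 2.91 to 4.50 for *Col5a2*, with the highest values of *Col1a1* and *Col5a2* without the proliferative library of mouse 1. The ratio differences ranged from 1.20 to 1.88, 0.33 to 1.37, -1.45 to -0.99 and 4.98 to 5.98 in the order reported. Among all genes tested, calls numbered 419 for the resting and 263 for the proliferative zone. The block gave 385 and 230, the likelihood ratio test 566 and 386, DESeq2 495 and 352, all genes with a count 829 and 468, at least 10 counts in every library 125 and 137, the test against a log2 fold change of 1 207 and 82, and an adjusted p below 0.05 635 and 427. Without the proliferative library of mouse 2, 255 were higher in resting libraries, and without both libraries of mouse 1, 170 were higher in the proliferative zone. Upper quartile scaling gave 339 and 359 with a median log2 fold change over all genes of -0.14, TMM factors taken before the filter, chosen after seeing the data, 321 and 353 with -0.15, and no factors 471 and 207 with 0.20. The fits that leave out 2 libraries were also chosen after seeing the data. With 0 to 8 proliferative counts, depth limits what can be said of *Col3a1*.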

Other observations

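Several genes held far fewer counts than a gene that overlaps them on the opposite strand. *Col9a3*, a chain of cartilage collagen IX, held 1756 counts over the 8 libraries against 64349 for *Tcfl5*, *Col10a1*, the collagen of hypertrophic chondrocytes, held 406 against 13458 for *Nt5dc1*, and *Ppib*, a procollagen chaperone, held 394 against 18974 for *Snx22*. In all 3 pairs the partner was higher in 8 of 8 libraries. Gene and partner were both higher in the proliferative zone by counts, which were not scaled for depth. This was not so in every pair, as *Plod3* held 15 resting and 83 proliferative counts and its partner *Znhit1* 11 and 7. Other genes kept most of the counts of their pair, as *Fn1* did with 1210 against 0 for *Apol7d* and *Plod2* with 1439 against 14 for *Gm38391*. On the mitochondrial genome *mt-Nd6* held 137491 counts and the 12 protein genes of the other strand 37887. For *Col1a1*, *Col1a2*, *Col3a1* and *Col5a2*, which have no partner with overlapping exons on the opposite strand, reads on that strand would not appear in the count table. These pairs were chosen after their values were seen.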
